A study of Homo sapiens with 6 samples.

Results

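Named antisense transcripts are the genes whose name is that of another gene followed by -AS and a digit, and they are transcribed from the strand opposite to that gene or close to it. Among the 33451 genes in the count table, 851 carried such a name. The 315 described here were chosen by their mean count, which was at least 50 over the 6 libraries, and each stands beside its sense gene, the gene whose name stands before -AS. The cells were MDA-MB-453, a long-established breast cancer line of human origin and of the luminal androgen receptor type, and 25(OH)D is the stable vitamin D metabolite of the blood. The control group (CG) received 0.1% alcohol as the solvent and the experimental group (EG) received 100 nM 25(OH)D, both for 5 days, with 3 libraries in each group. All libraries came from this single cell line.

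Antisense RNAs are mostly long noncoding RNAs. Many start from the same promoter region as the sense gene and run away from it, others lie inside the sense gene or meet it at its 3′ end, and all can share sequence with the sense RNA, with which they may pair. They are known both as regulators of the gene they lie against and as by-products of open promoters that the nuclear exosome, the complex that degrades RNA from its 3′ end, removes. In breast cancer cells of the luminal type, GATA3-AS1 and DSCAM-AS1 are familiar examples.

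Promoters of 4 transcripts are shown for the members on which the results turn, because their exons share few or no bases with the sense gene. Each window runs from 250 bases before to 50 bases after the start given by RefSeq (GRCh38.p14), read along the strand of the antisense transcript, and capitals mark the 50 bases from the start onwards. PDCD4-AS1 lies at chr10:110870855-110871154 on the minus strand, where the RefSeq start falls inside the span of the count table. TGFB2-AS1 lies at chr1:218345629-218345928 on the minus strand, IQCA1-AS1 at chr2:236390824-236391123 on the plus strand and SAP30L-AS1 at chr5:154445773-154446072 on the minus strand.
PDCD4-AS1: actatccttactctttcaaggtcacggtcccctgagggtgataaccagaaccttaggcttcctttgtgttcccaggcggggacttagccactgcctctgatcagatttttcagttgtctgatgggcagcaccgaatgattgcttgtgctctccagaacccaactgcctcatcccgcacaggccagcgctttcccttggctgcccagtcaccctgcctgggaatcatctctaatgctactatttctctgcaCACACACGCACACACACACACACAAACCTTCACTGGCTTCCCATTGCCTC
TGFB2-AS1: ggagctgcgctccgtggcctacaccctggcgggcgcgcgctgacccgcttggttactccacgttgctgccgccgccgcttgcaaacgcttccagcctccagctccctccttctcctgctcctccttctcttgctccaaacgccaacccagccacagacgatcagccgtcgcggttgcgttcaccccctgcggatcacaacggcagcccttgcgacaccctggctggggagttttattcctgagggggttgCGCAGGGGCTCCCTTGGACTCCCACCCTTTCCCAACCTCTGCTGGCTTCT
IQCA1-AS1: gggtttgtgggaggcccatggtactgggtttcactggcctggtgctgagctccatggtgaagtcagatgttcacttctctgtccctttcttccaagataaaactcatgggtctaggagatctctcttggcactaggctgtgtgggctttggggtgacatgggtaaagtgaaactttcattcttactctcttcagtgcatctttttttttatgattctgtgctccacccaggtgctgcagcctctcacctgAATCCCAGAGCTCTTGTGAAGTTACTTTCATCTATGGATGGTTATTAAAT
SAP30L-AS1: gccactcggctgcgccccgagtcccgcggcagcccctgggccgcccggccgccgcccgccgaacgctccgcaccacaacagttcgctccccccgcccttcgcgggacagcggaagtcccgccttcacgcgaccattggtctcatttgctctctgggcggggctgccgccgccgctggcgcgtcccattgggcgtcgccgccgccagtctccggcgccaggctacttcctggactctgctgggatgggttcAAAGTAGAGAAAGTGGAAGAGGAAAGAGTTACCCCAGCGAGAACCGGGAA

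The SAP30L-AS1 window held 35 CpG dinucleotides and overlapped the window of SAP30L itself by 274 bases, so that both genes start from the same CpG-rich stretch. The TGFB2-AS1 window held 22 CpG, the PDCD4-AS1 window 6 and the IQCA1-AS1 window 0. The PDCD4-AS1 window surrounds the RefSeq start, which lies downstream of the 5′ end of the counted transcript. It therefore does not describe the sequence at that 5′ end. RefSeq gave a window for 237 of the 315 members, and their median was 20 CpG against 14 over all 35116 windows. CACGTG, the E-box bound by MYC and related factors, stood in 25 of the 237 windows (10.5%) and in 7.26% of all windows. TTGCATCA, a composite site of the ATF4 type, stood in 2 of the 237 (0.844%) and in 0.866% of all windows. The DR3 element, the direct repeat with a spacer of 3 bases to which the vitamin D receptor binds, was found in its strict form in 0 of the 237 and in 0.0740% of all windows. Both strands were searched, and a match is a description of letters only.

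The libraries held between 33268860 and 40928176 counts. The members took between 0.457% and 0.466% of the counts in CG and between 0.435% and 0.443% in EG. Their levels ran from 1.35 to 177.6 CPM, with a median of 5.59 CPM. CPM is the count scaled to a common library size, after correction of the libraries by the TMM method, except in the marker sums that follow, which were scaled by library total alone. All 10 luminal and epithelial markers examined were listed, with a summed level of 5020 to 5170 CPM in CG and 5410 to 5510 CPM in EG. The 9 listed markers of other cell types summed to 43.4 to 46.6 CPM in CG and to 47.0 to 53.9 CPM in EG. PTPRC, the marker of blood cells, had at most 6 counts in a library and ESR1, the oestrogen receptor, at most 4. The share of mitochondrial genes was 7.85% to 7.99% in CG and 8.89% to 9.24% in EG, and their part in the results was not tested. In bulk RNA, fewer cells that make a transcript and less of it in each cell cannot be told apart.

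Most members share exon bases with the gene they lie against. Of the 315, 258 shared bases with the sense gene, 278 with any gene on the other strand and 37 with none. The median share was 15.3% of a member's exon bases, 31 members shared 50% or more with the sense gene, and NKX2-2-AS1, ANO1-AS1, C6orf47-AS1 and TAB3-AS2 lay wholly inside its exons. The library kit kept the strand, but whether strand was used in the counting, and how a read on 2 genes was handled, is not given in the sources used here. Reads on shared bases therefore cannot be assigned to the antisense or the sense RNA from the table alone. For MIF-AS1 and MIF, on opposite strands, the counts differed by no more than 0.401% in every library. Counts of the 278 members that share bases may thus hold reads of the other gene, and how many was not tested. As a description, 227 genes that lay wholly inside exons of a single gene on the other strand had a median RPKM of 0.583 of that of the outer gene (quartiles 0.179 and 1.32). For 115 genes inside a gene on the same strand, the median was 0.215. With principal transcripts alone, a setting added after seeing the data, the order turned, with 0.635 on the other strand (n = 116) and 0.701 on the same strand (n = 30), so that the comparison does not show how strand was counted. RPKM is the count divided by gene length and by library total, so that it compares levels between genes.

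By position, 118 members lay head to head with the sense gene, with 5′ ends within 2000 bases. A further 75 were tail to tail, 75 lay inside the sense gene, and 40 lay within 100000 bases in another arrangement. For 7 members (KRTAP5-AS1, MLK7-AS1, RPARP-AS1, and 2 each named for the HOXB and HOXC clusters), no gene of the sense name was in the table. On the RPKM scale, the antisense level stood above the sense level in 103 of 308 pairs (33.4%). The median ratio of the levels was 0.578.

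By CPM as counted, the highest members were TMPO-AS1, MIF-AS1, CERS6-AS1, OTUD6B-AS1, NUCB1-AS1 and SPAG5-AS1. TMPO-AS1 lies head to head with TMPO, which encodes proteins of the nuclear lamina. Its level was 198, 195 and 187 CPM in CG and 153, 153 and 151 CPM in EG. Both partners fell, the antisense transcript by 0.34 and TMPO by 0.35 on the log2 scale. MIF-AS1, tail to tail with the cytokine gene MIF, had 6486, 6005 and 6390 counts in CG and 6427, 7463 and 6544 counts in EG. MIF itself had 6462, 5981 and 6366 counts in CG and 6407, 7454 and 6527 counts in EG. In each library the antisense count exceeded the sense count by no more than 0.401%, and 46.5% of the exon bases of MIF-AS1 and 61.9% of those of MIF are shared. The counts of MIF-AS1 and MIF are thus not separate measures, and how abundant MIF-AS1 itself was cannot be read from them. CERS6-AS1, beside a ceramide synthase gene, rose by a log2 fold change of 0.32 with 69.7% of its bases shared. NUCB1-AS1, inside the gene of a calcium-binding Golgi protein, rose by 0.39, and NUCB1 also by 0.39. OTUD6B-AS1, beside a deubiquitinase gene, shares no exon base, stood at 126 ± 4.29 CPM in CG and 121 ± 1.91 CPM in EG (SD, n = 3) and was not called (log2 fold change -0.07).

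To ask which members differed after 25(OH)D, counts were compared by the quasi-likelihood test of edgeR with Benjamini-Hochberg adjustment over 18183 genes. At an adjusted p under 0.05, 37 of the 315 members rose, 51 fell and 227 were not called. The called share was 27.9%, against 33.8% of all genes tested (17.3% higher and 16.5% lower). The median log2 fold change was -0.03 for the members and -0.01 for all genes. In 49 members every EG library stood above every CG library, and in 74 every EG library stood below, 39.0% in all against 45.7% of all genes. With the limits drawn in the study, a log2 fold change beyond 1 in either direction at p under 0.05 before adjustment, 6 members were higher and 3 lower, against 6.65% of all genes (4.02% higher and 2.63% lower). Rises of called members had a median of 0.53 and falls a median of -0.50 on the log2 scale. By arrangement, 13 rose and 15 fell among the 118 head-to-head members, 7 and 15 among the 75 tail to tail, 11 and 14 among the 75 inside the sense gene, and 4 and 5 among the other 40.

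**Figure D1:**
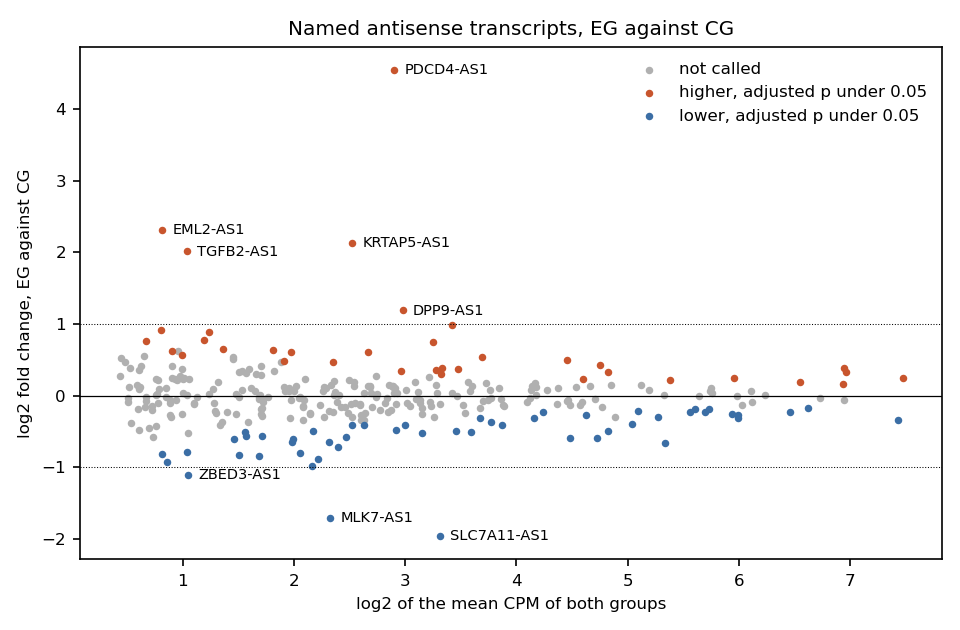
Log2 fold change of EG against CG over the log2 mean CPM for the members other than IQCA1-AS1, whose control libraries were all at 0. Each point is a transcript, coloured by its call at an adjusted p under 0.05, dotted lines mark log2 fold changes of 1 and -1, and PDCD4-AS1 stands highest at 4.54.

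PDCD4-AS1 showed the largest rise among the members with counts in both groups. PDCD4 encodes a tumour suppressor that blocks the helicase of translation initiation. The antisense transcript (chr10:110869868-110872233, minus strand, 2 exons of 778 bases in all) had 22, 20 and 29 counts in CG and 467, 529 and 521 counts in EG. The groups lay far apart, at 0.615 ± 0.150 CPM in CG and 14.3 ± 1.44 CPM in EG (SD, n = 3), a 23.3-fold rise with a log2 fold change of 4.54 ± 0.17 (SE) and an adjusted p of 4.44e-11. PDCD4 stood at 312, 322 and 328 CPM in CG and at 2370, 2340 and 2300 CPM in EG, a 7.29-fold rise with a log2 fold change of 2.87 ± 0.03. The 5′ ends of both genes lay 438 bases apart and no exon base is shared, while 26.6% of the antisense exon bases lie between the ends of PDCD4. The ratio of antisense to sense rose as well, by 1.58 ± 0.18 on the log2 scale (limma, adjusted p = 0.00105).

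TGFB2-AS1 rose with TGFB2, the gene of a transforming growth factor ligand. The pair is head to head with 557 bases between the 5′ ends, and the antisense exons (chr1:218344196-218345678, minus strand) lie outside the span of every gene on the other strand. The antisense transcript had 27, 36 and 31 counts in CG and 112, 107 and 127 counts in EG, with a log2 fold change of 2.01 ± 0.23 and an adjusted p of 1.05e-05. TGFB2 had 50, 44 and 20 counts in CG and 134, 138 and 111 counts in EG, with a log2 fold change of 1.88 ± 0.25. The groups do not overlap for either gene, and the ratio between the partners differed by 0.03 ± 0.33.

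IQCA1-AS1 was not seen in CG. It lies inside IQCA1, the gene of a protein with an ATPase domain, at chr2:236391074-236392388 on the plus strand, and shares 11.5% of its exon bases. Its counts were 0, 0 and 0 in CG and 120, 115 and 94 in EG, which is at least 39.9-fold higher with 3 counts per library as the floor. IQCA1 likewise had 0 counts in every CG library and 411, 359 and 299 counts in EG, at least 130-fold higher. Both genes were thus detected in EG libraries alone, and the fitted fold and ratio of this pair depend on the prior count.

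The other members that rose past a log2 fold change of 1 share more with their neighbours. EML2-AS1 lies inside EML2, the gene of a microtubule-binding protein, and shares 95.0% of its bases. It stood at 0.793, 0.529 and 0.435 CPM in CG and at 2.73, 3.49 and 2.58 CPM in EG, a log2 fold change of 2.31 ± 0.27, whereas EML2 rose by 0.78 ± 0.08. Although nearly all its bases are shared, the antisense count rose more than the sense count (ratio difference 1.48 ± 0.25, limma, adjusted p = 0.00959). That ratio call was lost without control replicate 2 (adjusted p = 0.0603), without 25(OH)D replicate 2 (0.0646), and without the trend that limma fitted to the spread (0.0653). DPP9-AS1, inside the gene of a cytosolic dipeptidyl peptidase and with 49.8% of bases shared, stood at 4.49, 4.71 and 5.21 CPM in CG and at 10.9, 12.1 and 9.82 CPM in EG. Its log2 fold change of 1.19 ± 0.12 was close to that of DPP9, 1.09 ± 0.05, with a ratio difference of 0.09 ± 0.10. KRTAP5-AS1 runs through a cluster of keratin-associated protein genes of the hair and shares 35.7% of its bases, most with KRTAP5-2. It had 118, 54 and 77 counts in CG and 300, 386 and 310 counts in EG, a log2 fold change of 2.13 ± 0.19.

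A further 3 members fell past the same limit. SLC7A11-AS1 runs tail to tail with SLC7A11, which encodes the exchanger that imports cystine. The antisense transcript stood at 16.1, 15.1 and 16.1 CPM in CG and at 4.38, 4.01 and 3.77 CPM in EG, a fall to 0.257 of the control level (log2 fold change -1.96 ± 0.10, adjusted p = 1.98e-09). SLC7A11 stood at 74.5, 72.8 and 74.9 CPM in CG and at 18.0, 16.5 and 17.6 CPM in EG (log2 fold change -2.09 ± 0.06). Of the antisense exon bases, 14.0% are shared with SLC7A11 and 59.7% lie between its ends. MLK7-AS1, named for a stress-activated kinase, fell from 8.43, 7.93 and 6.65 CPM to 2.28, 2.37 and 2.36 CPM (log2 fold change -1.72 ± 0.14), and its sense gene was not analysed here. ZBED3-AS1, head to head with the zinc finger gene ZBED3 and sharing 3.44% of its bases, fell from 2.33, 3.65 and 2.50 CPM to 1.31, 1.20 and 1.41 CPM (log2 fold change -1.11 ± 0.23), and ZBED3 fell by 0.85. In all 3 members, every EG library stood below every CG library.

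**Figure D2:**
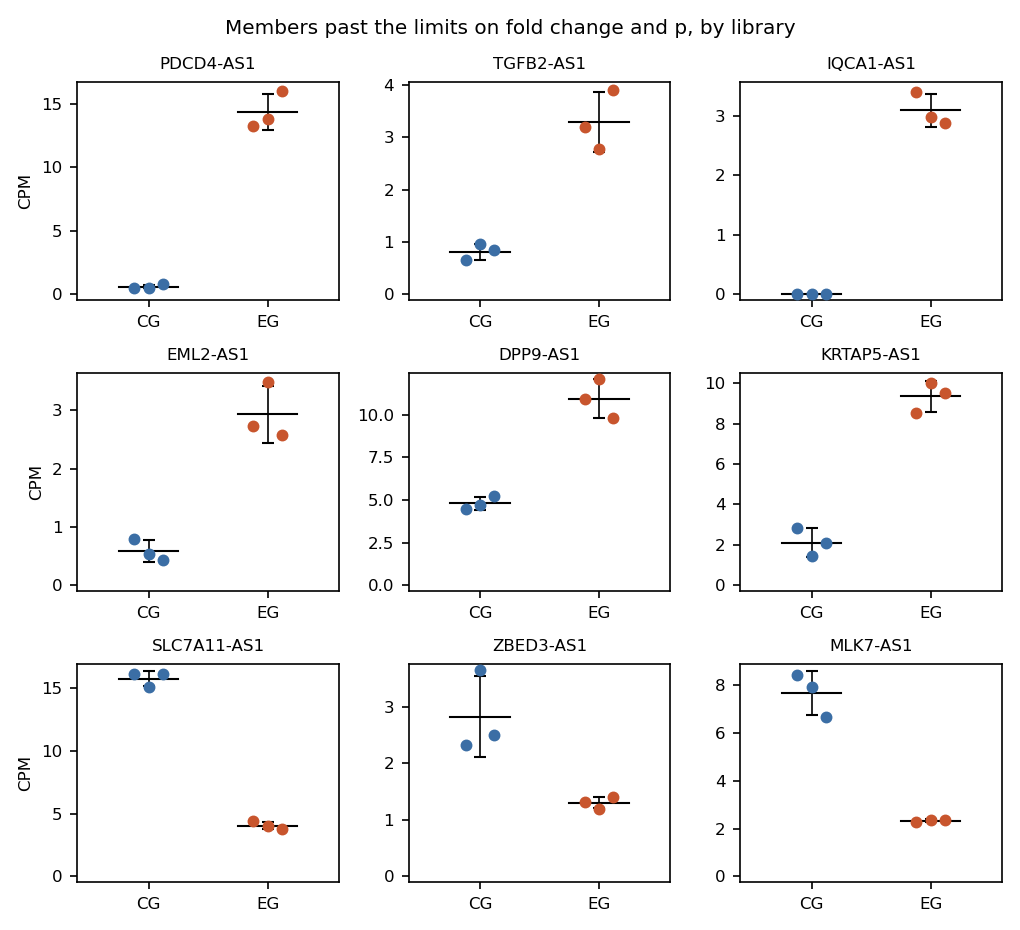
CPM of the 9 members past the limits in each library (points), with the mean (line) and SD (bars) of the 3 libraries of CG and EG on axes from 0. In every panel the CG and EG points are apart, and IQCA1-AS1 is at 0 in CG.

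Further called members changed by less. DSCAM-AS1, a noncoding RNA of luminal breast cancers, stood at 6.56, 7.38 and 7.66 CPM in CG and at 13.7, 14.1 and 15.0 CPM in EG, a log2 fold change of 0.99 ± 0.10. It lies inside DSCAM, a neuronal adhesion gene with at most 1 count in a library, and shares no exon base with any gene on the other strand. ADORA2A-AS1 rose by 0.91 beside the adenosine receptor gene ADORA2A, which rose by 1.22. ANO1-AS1, wholly inside the exons of the chloride channel gene ANO1, fell by 0.98 and ANO1 by 0.75. STARD4-AS1 fell by 0.93, while STARD4, a cholesterol carrier gene, had a log2 fold change of -0.48 that was not called. ADIRF-AS1 fell by 0.88 and ADIRF by 0.93, INTS6-AS1 fell by 0.84 and INTS6, an Integrator subunit gene, by 0.48, and ARAP1-AS1, with 99.2% of bases shared, fell by 0.83 and ARAP1 by 0.26.

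The 37 members that share no exon base with a gene on the other strand have counts that do not rest on exon bases shared between strands. Only 23 of them lay wholly outside the spans of genes on the other strand. Exon bases of the others, PDCD4-AS1 among them, lie in part between the ends of such a gene, where reads cannot be assigned to a strand either. Of the 37, 5 rose and 3 fell (21.6% called, against 33.8% of all genes). Besides PDCD4-AS1, TGFB2-AS1 and DSCAM-AS1, the rises were SCAMP1-AS1 by 0.60 and WDFY3-AS2 by 0.48, and the falls were COX10-AS1 by 0.80, SAP30L-AS1 by 0.65 and ZNF528-AS1 by 0.65. SCAMP1-AS1, WDFY3-AS2, COX10-AS1 and ZNF528-AS1 were named after their values were seen. COX10-AS1 starts 1 base from COX10, the gene of a haem synthesis enzyme, and stood at 5.28 ± 0.633 CPM in CG and 3.04 ± 0.146 CPM in EG (SD, n = 3). COX10 had a log2 fold change of -0.15 ± 0.20 and was not called, and the ratio between the partners did not pass the test (-0.59 ± 0.23, limma, adjusted p = 0.268). The call of WDFY3-AS2 was lost without control replicate 1 (adjusted p = 0.0643) or 3 (0.148) and without 25(OH)D replicate 1 (0.0961), 2 (0.0576) or 3 (0.0898), and held without control replicate 2. It was also lost with library sizes alone (0.0646), upper-quartile factors (0.0604) and limma on log2(RPKM + 1) (0.0934) or log2(RPKM + 0.1) (0.121).

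The sense genes were compared in the same fit. Of the 297 distinct sense genes tested, 54 rose (18.2%, against 17.3% of all genes) and 84 fell (28.3%, against 16.5%). The difference from all genes was not tested. In 303 pairs with both partners tested, the fold changes of antisense and sense had the same sign in 223 (73.6%). Both were called in 68 pairs, in 64 of them in the same direction. Across pairs the fold changes had a Pearson r of 0.773 and a Spearman rho of 0.675 (n = 302, without IQCA1-AS1). By arrangement, rho was 0.797 inside the sense gene (n = 73), 0.736 tail to tail (n = 75), 0.660 head to head (n = 118) and 0.361 for the other nearby pairs (n = 36). In the 31 pairs with 50% or more of the antisense bases shared, rho was 0.855, and in the 47 pairs with no base shared it was 0.477. These values are descriptions over pairs, which share libraries and in part the same reads, and the differences between them were not tested.

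**Figure D3:**
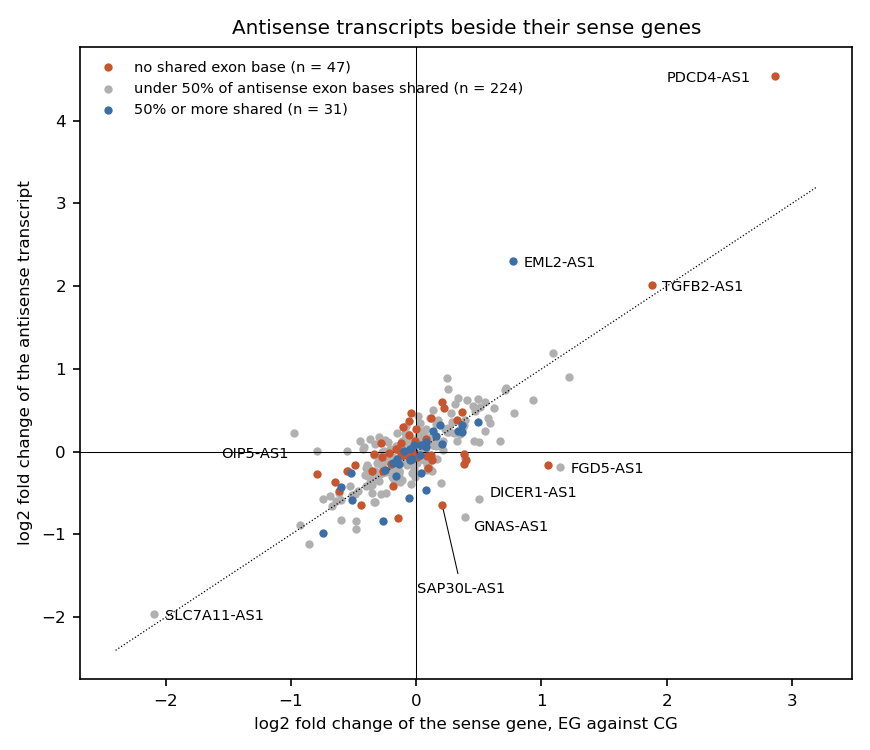
Log2 fold change (EG against CG) of each antisense transcript over that of its sense gene for 302 pairs, coloured by the share of antisense exon bases that lie in sense exons, with a dotted line where both are equal. Most pairs lie near the line, EML2-AS1 and PDCD4-AS1 lie above it and FGD5-AS1, DICER1-AS1, SAP30L-AS1 and GNAS-AS1 below.

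In 4 pairs the partners were called in opposite directions. SPAG5-AS1, head to head with the mitotic spindle gene SPAG5, stood at 110, 119 and 119 CPM in CG and at 131, 130 and 126 CPM in EG, a rise of 0.15 ± 0.04 (adjusted p = 0.0158), while SPAG5 fell by 0.37 ± 0.05. Of its exon bases, 39.6% are shared with genes on the other strand, most with KIAA0100. FGD5-AS1, tail to tail with FGD5, an activator of the GTPase Cdc42, had 56.5 ± 2.80 CPM in CG and 49.8 ± 4.02 CPM in EG (SD, n = 3), a fall of 0.18 ± 0.06 (adjusted p = 0.0423). FGD5 rose from 5.28, 4.89 and 5.21 CPM to 11.1, 11.7 and 11.3 CPM, a log2 fold change of 1.15 ± 0.10. The groups are far apart for FGD5 and near each other for its antisense transcript. The call of FGD5-AS1 was lost without control replicate 1 (adjusted p = 0.175) or 2 (0.0979) and without 25(OH)D replicate 1 (0.128) or 3 (0.182). It was also lost in limma on log2(RPKM + 1) (0.0582) and log2(RPKM + 0.1) (0.0564). GNAS-AS1, which shares 30.8% of its bases with GNAS, the gene of the stimulatory G protein subunit, fell by 0.78 ± 0.22 (adjusted p = 0.0136) and GNAS rose by 0.39 ± 0.07. SAP30L-AS1 starts 107 bases from SAP30L, the gene of a corepressor subunit, and shares no exon base. It stood at 5.31, 4.94 and 4.21 CPM in CG and at 2.87, 3.51 and 2.82 CPM in EG, a fall of 0.65 ± 0.16 (adjusted p = 0.00516), while SAP30L rose by 0.21 ± 0.08 (adjusted p = 0.0471). The call of SAP30L was lost without control replicate 1 (0.0538) or 3 (0.153) and without 25(OH)D replicate 2 (0.119) or 3 (0.106). SAP30L also lost it with the replicate block (0.0635), library sizes alone (0.119), upper-quartile factors (0.0992) and limma on log2(RPKM + 1) (0.205) or log2(RPKM + 0.1) (0.199). The call of GNAS-AS1 was lost without control replicate 2 (adjusted p = 0.0852) and without 25(OH)D replicate 2 (0.0591). That of SPAG5-AS1 was lost without control replicate 1 (0.0691) and without 25(OH)D replicate 1 (0.0524) or 2 (0.0550). SPAG5-AS1 also lost it with library sizes alone (0.0730), upper-quartile factors (0.0813) and limma on log2(RPKM + 1) (0.0878) or log2(RPKM + 0.1) (0.0895).

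The difference between the partners was itself tested with limma on the log2 ratio of antisense to sense CPM in each library, over 460 pairs of -AS genes and sense genes. Of all pairs, 17 (3.70%) passed at an adjusted p under 0.05. In the pair of IQCA1-AS1 both partners were at 0 in CG, so that its control ratio holds only the prior count and its call is no measured difference. Of the 303 member pairs, 16 passed (5.28%), and without that pair 15 passed, with the ratio higher in EG in 10 and lower in 5. Of the 303, 50 had an unadjusted p under 0.05. Among the 15, 9 were head to head, as were 118 of the 302 member pairs with a measured control ratio, and the difference was not tested. FGD5-AS1 gave the smallest p, with a ratio difference of -1.33 ± 0.06 (adjusted p = 5.90e-07), and SPAG5-AS1 the next, 0.53 ± 0.04 (adjusted p = 3.41e-05). OIP5-AS1, an abundant noncoding RNA, stood at 72.2, 76.9 and 76.9 CPM in CG and at 78.5, 73.5 and 74.7 CPM in EG, with overlapping groups. OIP5, a centromere gene at its 3′ end, fell by 0.79 ± 0.16, and the ratio differed by 0.78 ± 0.10 (adjusted p = 0.00182). GATA3-AS1 fell by 0.27 ± 0.07, less than the luminal transcription factor gene GATA3, which fell by 0.80 ± 0.04, and the ratio differed by 0.53 ± 0.07 (adjusted p = 0.00253). GATA3-AS1 starts 120 bases from GATA3 and shares no exon base with it, but shares 15.2% with another gene on the other strand. Without the trend in limma, the ratio calls of OIP5-AS1, GATA3-AS1 and EMC3-AS1 were lost (adjusted p of 0.0678, 0.0952 and 0.0661).

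The remaining ratio calls with a lower ratio were those of GNAS-AS1 (-1.13 ± 0.18), DICER1-AS1 (-1.06 ± 0.17), SAP30L-AS1 (-0.85 ± 0.14) and EMC3-AS1 (-0.57 ± 0.09). DICER1-AS1 itself was not called (log2 fold change -0.58 ± 0.21, adjusted p = 0.0511), whereas DICER1, which cuts double-stranded RNA, rose by 0.50 ± 0.04. DICER1-AS1 passed under upper-quartile factors (adjusted p = 0.0376), with library sizes alone (0.0353) and in limma on log2(RPKM + 1) (0.0131) and log2(RPKM + 0.1) (0.0214), and the pair would then count among those called in opposite directions. The other calls with a higher ratio included SEMA3F-AS1 (0.31), WAC-AS1 (0.26), PRMT5-AS1 (0.20) and PLCG1-AS1 (0.15). These 4 calls depended on the setting. Of 9 alternative settings, the call held in 6 for WAC-AS1, in 4 each for SEMA3F-AS1 and PLCG1-AS1 and in 3 for PRMT5-AS1. Without limma's trend their adjusted p lay between 0.261 and 0.408. Among the fits without a single library, the call was lost without control replicate 1 for SEMA3F-AS1 (0.0767), PRMT5-AS1 (0.122) and PLCG1-AS1 (0.0734), without control replicate 2 for SEMA3F-AS1 (0.0607), PRMT5-AS1 (0.137) and WAC-AS1 (0.0658), without 25(OH)D replicate 1 for PRMT5-AS1 (0.160), PLCG1-AS1 (0.0771) and WAC-AS1 (0.0741), without 25(OH)D replicate 2 for SEMA3F-AS1 (0.0956), and without 25(OH)D replicate 3 for SEMA3F-AS1 (0.0692), PRMT5-AS1 (0.113) and PLCG1-AS1 (0.0692). The median absolute ratio difference was 0.131 over the 303 pairs. It was 0.0934 in the pairs with 50% or more of the bases shared, of which 1 of 31 passed. In the pairs with none shared it was 0.231, and 3 of 47 passed. Those 3 were PDCD4-AS1, GATA3-AS1 and SAP30L-AS1. The other called pairs, FGD5-AS1 among them, share exon bases with the sense gene, where reads cannot be assigned to a partner.

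**Figure D4:**
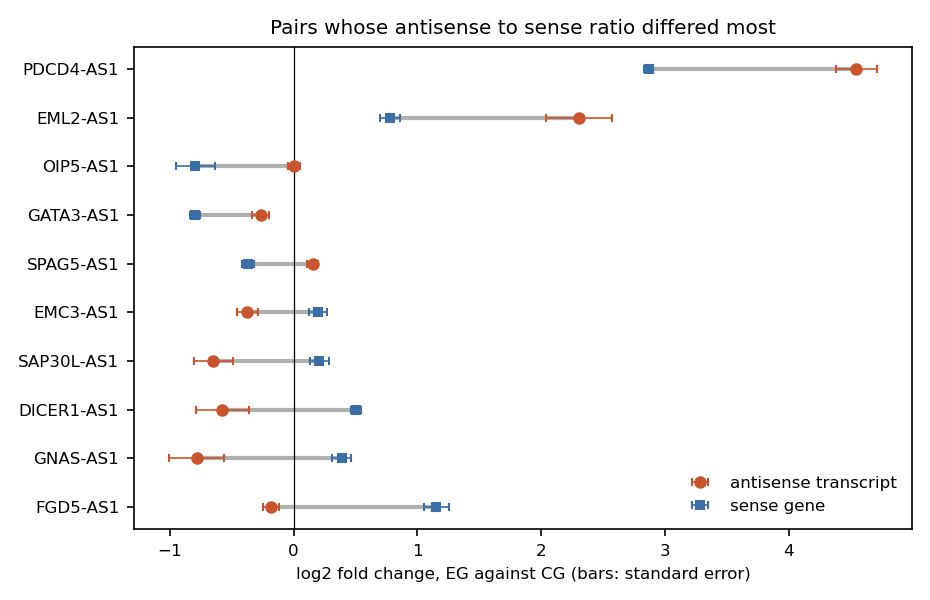
Log2 fold changes (EG against CG, bars are standard errors) of the antisense transcript (circles) and the sense gene (squares) in 10 of the 11 called pairs whose log2 ratio differed by over 0.5, IQCA1-AS1 being left out because its control libraries were at 0. In SPAG5-AS1 the circle stands right of 0 and the square left, and in FGD5-AS1, GNAS-AS1, DICER1-AS1, SAP30L-AS1 and EMC3-AS1 the order is reversed.

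Of the 4 members wholly inside sense exons, ANO1-AS1 fell with its sense gene and the others were not called. C6orf47-AS1, NKX2-2-AS1 and TAB3-AS2 had log2 fold changes of 0.19 ± 0.09, 0.25 ± 0.24 and 0.06 ± 0.13. Their sense genes had values of 0.16 ± 0.06, 0.13 ± 0.19 and 0.08 ± 0.05, and were not called either.

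Libraries of the same group agreed closely for most members, with a median coefficient of variation of 9.70% in CG and 8.42% in EG. KLF3-AS1, CEBPB-AS1 and H1FX-AS1, named after their values were seen, varied most in CG. KLF3-AS1, head to head with the transcription factor gene KLF3, stood at 16.6, 7.83 and 1.41 CPM in CG and at 3.07, 7.70 and 14.7 CPM in EG (coefficients of variation 88.5% and 68.8%). The highest library held 11.8 times the lowest. KLF3 itself stood at 37.7, 29.4 and 21.4 CPM in CG and at 17.2, 23.6 and 29.6 CPM in EG. CEBPB-AS1, beside another transcription factor gene, ran from 1.52 to 4.39 CPM in CG and from 2.19 to 7.27 CPM in EG, and H1FX-AS1, beside a linker histone gene, from 20.1 to 47.9 and from 18.8 to 33.8 CPM. For all 3 transcripts and their sense genes, control replicate 1 was the highest and control replicate 3 the lowest in CG, and 25(OH)D replicate 3 the highest and 25(OH)D replicate 1 the lowest in EG. The antisense transcripts overlapped between the groups and none was called in the main fit. In edgeR without the low-count filter, H1FX-AS1 (adjusted p = 0.00097) and CEBPB-AS1 (0.0364) were called. The sense gene CEBPB was called in the main fit, but not without control replicate 2 (0.0723) or 3 (0.0636) or 25(OH)D replicate 3 (0.114). Its call was also lost in DESeq2 (0.158) and in limma on log2(RPKM + 1) (0.141) or log2(RPKM + 0.1) (0.138). What differed between these libraries was not tested.

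**Figure D5:**
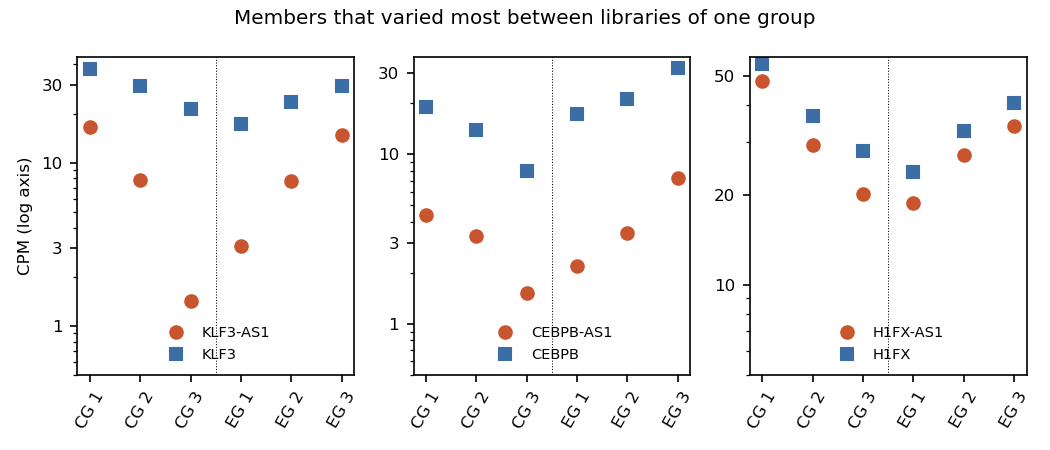
CPM (log axis) of KLF3-AS1, CEBPB-AS1 and H1FX-AS1 (circles) and of their sense genes (squares) in the 6 libraries, with a dotted line between CG and EG. Antisense and sense values are high and low in the same libraries within each group.

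Machinery that degrades antisense RNA or acts on double-stranded RNA was read from a list of 46 genes tested, of which 11 rose and 16 fell (median log2 fold change -0.06, against -0.01 for all genes, of which 17.3% rose and 16.5% fell). Of 13 exosome genes, 8 fell and 1 rose, with a median of -0.26. EXOSC8, a ring subunit, fell by 0.53 ± 0.07, EXOSC10, a nuclear exonuclease, by 0.32 ± 0.05, and DIS3, the other exonuclease, had a log2 fold change of -0.02 ± 0.05. Only MPHOSPH6, a cofactor, rose in this group, by 0.47 ± 0.04. Of 16 exosome adaptors and related factors, 3 rose and 4 fell. Of 17 double-stranded RNA factors, 7 rose and 4 fell, with a median of 0.16. The rises included the RNA sensors DDX58 by 0.91 ± 0.07 and IFIH1 by 0.48 ± 0.07 and the kinase EIF2AK2 by 0.36 ± 0.06. Whether these levels bear on the antisense transcripts was not tested.

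Around the minimum of 50 counts, the members with the lowest means were TRAPPC12-AS1 at 1.22 and 1.48 CPM in CG and EG, RHPN1-AS1 at 1.12 and 1.61 CPM and OSER1-AS1 at 1.18 and 1.62 CPM. Just below it were STX18-AS1 at 1.25 and 1.42 CPM, STXBP5-AS1 at 0.765 and 1.97 CPM and BAALC-AS1 at 1.66 and 0.963 CPM.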

How the data were processed

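The mRNA of MDA-MB-453 cells was sequenced in 6 libraries. The authors deposited whole-number counts per gene with exon positions, without normalization, and RPKM values that equal count over length and library total. Per the labels, Trimmomatic 0.36, featureCounts of Subread 1.5.1, edgeR 3.12.1 and GRCh38 were used, per the submitters' processing notes. The aligner, the annotation release, the strand setting and the handling of overlaps are not given in the sources used here.

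The analysis of the counts used edgeR 4.0.16 under R 4.3.3 (TMM, low-count filter with a minimum count of 10, quasi-likelihood test without covariates, Benjamini-Hochberg over 18183 genes). Ratios of antisense to sense were tested with limma 3.58.1 (trend, prior count of 2). Both tests were tested on simulated data. DESeq2 1.42.0 was an alternative, with other scalings, no filter, log2(RPKM + 1) or log2(RPKM + 0.1), a replicate block, other minimum means and each library left out in turn. Exon bases were compared on the positions of the count table. The group of each library came from the labels. No library repeated another of its group (chi-square per gene from 4.01 to 12.1). The methods call the libraries biological replicates, and p-values measure the spread between them. With 33268860 to 40928176 counts per library, 3 counts equal 0.0720 to 0.0921 CPM. At low counts, counting error adds to the spread between libraries.

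Members, lists and the rule for naming genes were chosen with earlier results of these data known. The rule named the 6 most abundant members, the 8 largest called rises and falls, members past the limits, pairs called in opposite directions, the 5 smallest ratio p-values, the 4 largest shares and those next to the minimum. Adaptors MTREX, TENT4B and ARS2 were listed under their older symbols. Promoters came from RefSeq (GRCh38.p14), where 78 members had no entry. Some genes are not reported here.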

Additional observations from a re-analysis of the deposited data

How the results depend on the processing

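The 9 members past the limits kept their direction and their call at an adjusted p under 0.05 in all 126 refitted values. Over all settings run on the same members, rises numbered 27 to 40 and falls 37 to 60, and limma on log2(RPKM + 0.1) gave 27 and 59 where the count test gave 37 and 51. With the replicate number as a block, 36 members rose and 48 fell, 6 and 3 passed the limits, 52 sense genes rose and 80 fell, and the ratio was higher in 7 pairs and lower in 6. The numbers share no batch in the labels and the paired deviations were not correlated (-0.07, -0.01 and -0.05), so they were not taken as pairs. The block ended the calls of SAP30L (adjusted p = 0.0635), WDFY3-AS2 (0.0576) and CEBPB (0.0515) and the ratio calls of PRMT5-AS1 (0.0806), PLCG1-AS1 (0.0630) and IQCA1-AS1 (0.0874).

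Counts that moved by over 1.5 times were as follows. Members sharing no exon base gave 5 rises and 3 falls, and 2 and 0 past the limits, with 3 falls at an unadjusted p under 0.05 in edgeR and 3 at an adjusted p. Members outside the spans of other genes, chosen after seeing the data, gave 2 and 2. A minimum mean of 25 counts gave 10 and 5 past the limits, and a minimum of 100 gave 3 higher and 2 lower. Falls past the limits ran from 3 to 5 when single libraries were left out, with 5 without 25(OH)D replicate 2. Higher ratios ran from 5 to 10, with 5 without control replicate 2 and 6 without 25(OH)D replicate 1, and numbered 2 in limma without the trend. Pairs sharing no exon base gave 2 higher and 1 lower ratio. The ratio calls of PDCD4-AS1, SPAG5-AS1, FGD5-AS1, GNAS-AS1, DICER1-AS1 and SAP30L-AS1 held in all 9 alternatives. Except where fewer members entered, the cause was not tested.

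Among 86 named genes, signs reversed only for genes that were not called in the main fit. OIP5-AS1 was at -0.0369 under upper-quartile factors, -0.0393 under library sizes alone, -0.0337 and -0.0387 in limma on log2(RPKM + 1) and log2(RPKM + 0.1), and between -0.0186 and 0.0319 without single libraries. KLF3-AS1 was at 0.0372 and 0.197 in the same limma fits, 0.115 with the replicate block, and between -0.669 and 0.868 without single libraries. TRAPPC12 was at 0.00491 with DESeq2 size factors, 0.00209 without the filter, 0.00495 in DESeq2, 0.00630 with the block, and between -0.103 and 0.0658 without single libraries. The same omissions gave -0.121 to 0.824 for CEBPB-AS1, -0.430 to 0.0250 for COX10, -0.493 to 0.00680 for H1FX, -0.538 to 0.105 for H1FX-AS1, -0.00209 to 0.221 for NKX2-2, -0.0809 to 0.0366 for OSER1 and -0.0227 to 0.580 for TRAPPC12-AS1. With principal transcripts alone, the ratio of inner to outer RPKM was 0.635 (other strand) and 0.701 (same strand). Depth limits the members near 50 counts.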

Other observations

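Below the minimum of 50 counts stood 536 further -AS names, and 174 had enough reads to be tested. Among them, 15 rose and 6 fell at an adjusted p under 0.05 in the quasi-likelihood test of edgeR (12.1%, against 33.8% of all genes). STXBP5-AS1 had 21, 40 and 27 counts in CG and 63, 64 and 80 in EG, with a log2 fold change of 1.36 ± 0.30 (adjusted p = 0.00271). STXBP5, a regulator of vesicle fusion with which it lies head to head, rose by 0.36 ± 0.08. The fold of BAALC-AS1 was -0.78 ± 0.24 on the log2 scale (adjusted p = 0.0206), while BAALC had at most 4 counts in a library. Its call was lost without control replicate 1 (0.0570) or 3 (0.0658) and without 25(OH)D replicate 1 (0.0513) or 2 (0.0648).

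Besides MIF-AS1, CBR3-AS1 was the only other member whose count lay within 10% of that of its sense gene in every library, among 308 pairs. It was named after its values were seen. CBR3-AS1, beside the carbonyl reductase gene CBR3, shares 42.2% of the exon bases of CBR3 but only 5.83% of its own.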
